A study of Mus musculus with 36 samples.

Results

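Gene desert bins were the pieces of H3K9me3 peaks in mouse liver that lay far from the gene start assigned to them. They were defined as bins on chromosomes 1 to 19 that the authors annotated as distal intergenic and placed more than 200 kb from that transcription start site. A bin is a piece of at most 501 bp of a ChIP-seq peak, and each peak is represented by a single bin in a table. The table of control females at 3 and 8 weeks listed 8694 such bins among 114317 autosomal bins (7.61%). The table of control males at the same ages listed 10023 of 147360 (6.8%). In the tables of MO and control offspring the count was 9460 in females at 3 weeks, 8975 in females at 8 weeks, 10524 in males at 3 weeks and 8013 in males at 8 weeks. Over the 6 tables the bins had 24114 distinct coordinates, of 414426 for all listed bins.

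The study asked how maternal obesity (MO) and postnatal age shape H3K9me3 in the offspring's liver. The mice carried Reg3g fl/+ or Reg3g fl/fl, a floxed allele from a colony on the C57BL/6J background, in control and MO groups alike, and the labels name no Cre driver. Dams received a Western-style diet (MO) or chow (control) before mating and until the end of lactation. Whole liver of female and male offspring was taken at 3 weeks, before weaning, or at 8 weeks, when the mice had been on chow since weaning, which gave 8 groups of 4 ChIP libraries and 4 input libraries. Each table holds, for every bin, a level pooled over its 8 ChIP libraries, the authors' mean log2 CPM (CPM being the reads in a bin scaled to the library's total). No value per library or per diet group was analysed here, so no level of a bin carries an error, the exact depth of each library is unknown, and MO is not compared with control. The tables of control mice hold control libraries that the tables of MO and control offspring hold too. The 6 tables may have been scaled separately, and whether such scaling shifts all levels of a table alike was not tested.

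H3K9me3, trimethylated lysine 9 of histone H3, is the mark of constitutive heterochromatin. The methyltransferases SUV39H1, SUV39H2 and SETDB1 write it, and HP1 proteins bind it and compact the chromatin. Long stretches of the genome without genes hold many remnants of transposable elements, and keeping such repeats silent is the best known task of the mark. Reference genomes mark interspersed and simple repeats in lower case ("soft-masked"), and this masking was used here as a measure of repeat content, without naming repeat families.

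Many gene desert bins held a short stretch of sequence that was also in gene desert bins on other chromosomes. In control females, 6017 of 8694 bins (69.2%) shared at least 1 stretch of 30 bases, on either strand, with a gene desert bin on another chromosome. The same held for 40.2% of other intergenic bins and 16.9% of promoter and gene bins. In control males the shares were 68.1%, 38.1% and 17.6%. Matches were sought only among gene desert bins, which favours that class. Stretches that recur only within another class were not counted, so the shares are a description. For gene desert bins the share ran from 65.6 to 73.2% over the 6 tables. Gene desert bins of control females that shared a stretch had a median level of 2.86 (pooled log2 CPM) and were 83.2% masked at the median, and those that did not had 2.64 and 10.8%. To show what recurred, 6 widely shared stretches are printed. A was the stretch found in the most gene desert bins of control females. Each next one was the stretch found in the most bins left without a previous one, so B to F are not ranked among all stretches. They are given 5′ to 3′ from the GRCm38 reference, on 1 strand, wholly in capitals.
Stretch A: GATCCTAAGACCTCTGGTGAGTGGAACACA
Stretch B: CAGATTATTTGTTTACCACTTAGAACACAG
Stretch C: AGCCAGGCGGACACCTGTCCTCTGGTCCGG
Stretch D: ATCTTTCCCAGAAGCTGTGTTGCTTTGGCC
Stretch E: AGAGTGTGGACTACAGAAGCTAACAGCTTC
Stretch F: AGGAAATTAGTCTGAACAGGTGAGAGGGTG

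Stretch A was the most frequent shared stretch in each of the 6 tables. It lay in 457 gene desert bins of control females, spread over all 19 autosomes, and in 462 of control males. In the tables of MO and control offspring it lay in 439 and 471 bins of females at 3 and 8 weeks and in 454 and 460 of males. More than 1 copy was present in 79 of the carriers in control females. The bases around it were alike in bins from different chromosomes, as the 4 bins with the highest level among its carriers in control females show (at most 1 per chromosome, chosen after the values were seen). Stretch A is in capitals, the 30 bases on either side are in lower case, and each is read on the strand given (GRCm38).
Bin assigned to Gm12887, chr4:121995128-121995217, minus strand: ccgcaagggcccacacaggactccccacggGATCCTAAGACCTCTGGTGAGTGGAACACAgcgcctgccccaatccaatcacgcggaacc
Bin assigned to 5730507C01Rik, chr12:18259709-18259798, minus strand: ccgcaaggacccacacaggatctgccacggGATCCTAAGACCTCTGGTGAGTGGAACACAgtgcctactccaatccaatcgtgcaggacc
Bin assigned to Gm7977, chr3:47591837-47591926, plus strand: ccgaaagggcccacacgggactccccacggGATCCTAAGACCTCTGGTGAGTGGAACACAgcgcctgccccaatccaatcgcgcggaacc
Bin assigned to Cdh7, chr1:109411274-109411363, minus strand: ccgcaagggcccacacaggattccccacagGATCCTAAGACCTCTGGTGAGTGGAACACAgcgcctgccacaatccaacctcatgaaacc
These 4 bins had levels of 4.07, 3.65, 3.63 and 3.62 (pooled log2 CPM), against a median of 2.79 over all gene desert bins of that table.

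Only 5 gene desert bins had the same coordinates in all 6 tables, since peaks were merged within each sex and female and male bin edges rarely coincide. The central 300 bases of 4 of them, those with the highest minimum level, are given on the plus strand (GRCm38). Capitals mark every base that lies in a 30-base stretch held by another gene desert bin of control females on a different chromosome.
Bin assigned to Mir3964, chr15:28982246-28982545: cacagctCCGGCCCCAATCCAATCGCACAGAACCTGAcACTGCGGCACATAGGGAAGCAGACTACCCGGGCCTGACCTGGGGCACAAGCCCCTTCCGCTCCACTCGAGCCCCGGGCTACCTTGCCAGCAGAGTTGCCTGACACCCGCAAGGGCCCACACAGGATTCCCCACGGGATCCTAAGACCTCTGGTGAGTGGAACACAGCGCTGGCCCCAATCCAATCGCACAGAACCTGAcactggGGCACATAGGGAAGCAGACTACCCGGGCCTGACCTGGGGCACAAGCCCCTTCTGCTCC
Bin assigned to Cylc2, chr4:50700079-50700378: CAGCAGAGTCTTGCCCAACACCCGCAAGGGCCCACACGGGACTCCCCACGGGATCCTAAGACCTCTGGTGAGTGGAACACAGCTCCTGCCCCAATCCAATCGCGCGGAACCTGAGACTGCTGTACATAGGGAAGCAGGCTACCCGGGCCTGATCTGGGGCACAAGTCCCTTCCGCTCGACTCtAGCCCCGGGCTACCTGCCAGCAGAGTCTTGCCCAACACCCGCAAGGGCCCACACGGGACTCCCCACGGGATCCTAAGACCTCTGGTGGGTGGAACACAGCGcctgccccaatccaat
Bin assigned to C230029F24Rik, chr1:49896661-49896960: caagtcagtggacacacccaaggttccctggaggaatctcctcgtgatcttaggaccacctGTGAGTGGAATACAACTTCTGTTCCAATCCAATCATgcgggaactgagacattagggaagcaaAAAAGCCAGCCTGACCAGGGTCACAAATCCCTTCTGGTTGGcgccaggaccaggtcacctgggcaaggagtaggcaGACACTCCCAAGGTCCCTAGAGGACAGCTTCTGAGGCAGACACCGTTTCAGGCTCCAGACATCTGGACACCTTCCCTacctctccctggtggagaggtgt
Bin assigned to Ccnh, chr13:84972901-84973200: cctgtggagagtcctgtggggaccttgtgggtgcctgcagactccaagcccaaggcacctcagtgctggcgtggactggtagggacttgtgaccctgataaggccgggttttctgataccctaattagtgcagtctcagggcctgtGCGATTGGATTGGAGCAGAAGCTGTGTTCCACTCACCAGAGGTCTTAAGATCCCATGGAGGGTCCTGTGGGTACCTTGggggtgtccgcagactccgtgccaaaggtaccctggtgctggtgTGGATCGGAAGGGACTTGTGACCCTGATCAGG
Shared bases made up 95.3% of the window near Mir3964, 94.3% near Cylc2, 51.3% near C230029F24Rik and 36.7% near Ccnh. The whole Mir3964 bin held 2 exact copies of stretch A and the Cylc2 bin 1. The closest match to A had 1 mismatch in the Ccnh bin and 6 mismatches in the C230029F24Rik bin.

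These 4 bins were followed through the tables. The bin assigned to the microRNA gene Mir3964, 731 kb downstream of its start, had pooled levels of 3.40 in control females, 2.90 in control males, 3.13 and 3.47 in the female tables of 3 and 8 weeks, and 2.62 and 3.64 in the male ones. The bin assigned to Cylc2, which encodes a cytoskeletal protein of the sperm head, stood at 3.45, 2.52, 2.90, 3.69, 2.53 and 3.34 in the same order. In both, the 8-week table of each sex gave the higher level of its pair. The bin assigned to C230029F24Rik, a gene known by its clone name, had 3.06, 2.48, 3.08, 3.05, 2.68 and 2.94. The bin assigned to Ccnh, cyclin H of the CDK-activating kinase, had 3.00, 2.63, 2.88, 3.07, 2.39 and 3.14. Over all autosomal bins listed at both ages, the median difference between the 8-week and the 3-week table was 0.22 in females and 0.63 in males. The difference exceeded that shift in both sexes for the Mir3964 and Cylc2 bins, in males for the Ccnh bin, and in neither sex for the C230029F24Rik bin.

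Many gene desert bins had an annotated gene nearby that was not protein-coding. In control females the median distance was 386 kb to the assigned start site, which the selection fixed to be over 200 kb, and 381 kb to the nearest protein-coding gene body of the GENCODE M21 annotation. To the nearest annotated gene body of any kind, long noncoding RNAs and pseudogenes included, it was 51.6 kb (quartiles 18.8 and 107 kb). 7624 bins (87.7%) lay over 200 kb from every protein-coding gene body, and 743 (8.55%) lay over 200 kb from every annotated gene. Control males gave 87.4% and 8.6%. The bins were nearly evenly split between the sides of the assigned start, with 51.5% downstream in control females and 51.5% in control males.

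Repeat sequence filled most of a typical gene desert bin. The median bin of control females was 68.9% soft-masked, against 22.5% for other intergenic bins and 8.53% for bins at promoters or in genes. The same medians in control males were 67.2%, 21.2% and 8.94%. At least 90% of the bases were masked in 24.5% of gene desert bins of control females, in 10.9% of other intergenic bins and in 3.19% of promoter and gene bins. No base was masked in 6.06%, 12.1% and 23.9%. Desert sequence itself, defined as all bases over 200 kb from every start site and outside genes that have an Entrez identifier, was 40.1% masked, against 33.5% of the autosomes as a whole. Over the 6 tables the median of gene desert bins ran from 65 to 73.9%, with both 8-week tables above both 3-week tables.

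**Figure D1:**
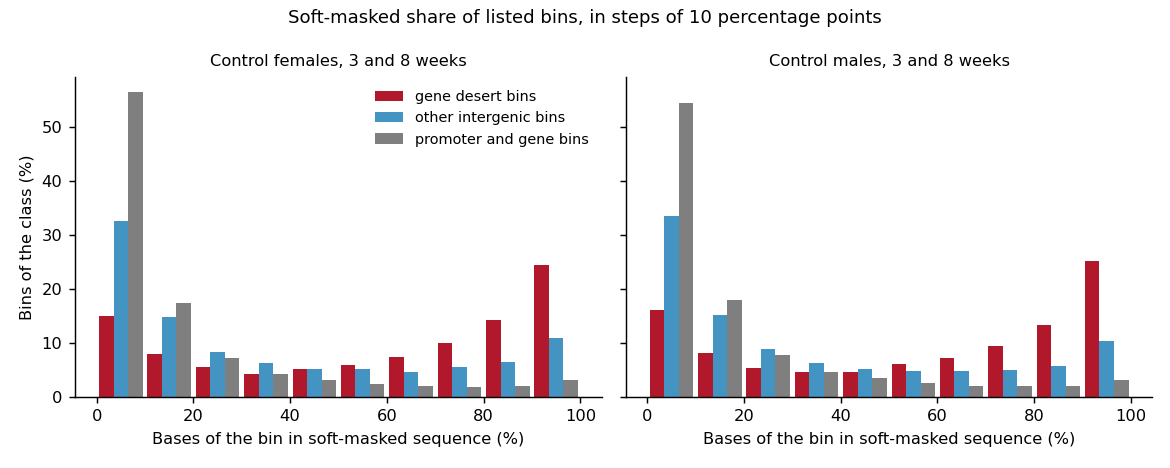
Share of listed bins (y axis, % of the class) by the share of their bases in soft-masked sequence (x axis, %, steps of 10) for gene desert bins, other intergenic bins and bins at promoters or in genes, in control females (left) and control males (right). Gene desert bins pile up at the masked end, with 24.5% of them at least 90% masked in females and 25.1% in males.

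The bins were also richer in G and C than the sequence around them. Their median GC content was 54.4% in control females and 54.3% in control males, while desert sequence had 38.6% and the autosomes 41.9%. This was a feature of listed bins in general, with 53.7% in other intergenic bins and 54.7% in promoter and gene bins of control females. CpG dinucleotides numbered 1.88 per 100 bases in the median gene desert bin of control females, against 0.562 in desert sequence. This too was shared by listed bins in general, with 1.80 in other intergenic bins and 2.04 in promoter and gene bins. Within gene desert bins of control females, CpG density was highest where masking was most complete, with a median of 3.6 per 100 bases in bins at least 90% masked and 1.5 in bins under 10% masked.

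The levels were slightly higher in gene desert bins than in the others. The median pooled level of control females was 2.79 log2 CPM (quartiles 2.57 and 3.03), against 2.65 in other intergenic bins and 2.63 in promoter and gene bins. In control males the medians were 2.26 (quartiles 2.01 and 2.53), 2.10 and 2.09. The quartiles of the classes overlapped widely. At 3 weeks the gene desert median was 2.53 in females and 2.17 in males, and at 8 weeks 2.81 and 2.90. Each was above the medians of other intergenic bins, which were 2.41, 2.05, 2.63 and 2.75. Gene desert bins were also shorter, with a median of 442 bp against 501 bp in other intergenic bins of control females. Per kb of bin, the medians were 4.19 and 3.86 on the log2 scale. The upper end was lower: the highest gene desert bin of control females stood at 4.22, and the highest bin in or near a gene at 9.31. Among other intergenic bins the highest stood at 5.57. The classes held 8694, 70888 and 34735 bins in that order, which bears on their maxima.

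Within gene desert bins of control mice, more fully masked bins had higher median levels. Bins of control females under 10% masked had a median level of 2.63, those 10 to 50% masked 2.70, those 50 to 90% masked 2.85 and those at least 90% masked 2.90. Across the 8694 bins the Spearman coefficient of level was 0.40 with GC content, 0.29 with the masked share and 0.08 with distance. In control males the values were 0.37, 0.29 and 0.087. Where MO and control offspring of 3 weeks were pooled, bins 50 to 90% masked and bins at least 90% masked were nearly level. Their medians were 2.609 and 2.613 in females and 2.258 and 2.249 in males. These are descriptions across bins of the same pooled libraries, and the selection cut distance off at 200 kb, which limits its coefficient and bars ranking it against the others. The treatment of reads that match several places is not given in the sources used here, and its part in the levels of repeated sequence was not tested.

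Distance from the assigned start site was accompanied by small differences in level and larger ones in masking. In control females the median level was 2.74 at 200 to 300 kb, 2.79 at 300 to 500 kb, 2.81 at 500 kb to 1 Mb and 2.84 above 1 Mb. The masked share over the same classes was 52.8%, 66.9%, 77.2% and 79.5%. Control males showed the same order, from 2.21 and 49.1% in the nearest class to 2.32 and 80.3% in the farthest. At the 200 kb limit, the 377 intergenic bins of control females within 10 kb outside it had a median level of 2.74 and were 43.7% masked. The 364 bins within 10 kb inside it had 2.73 and 51.8%. In control males the values were 2.12 and 29.5% outside and 2.19 and 37.3% inside. The inside level was also the higher in each table of MO and control offspring.

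**Figure D2:**
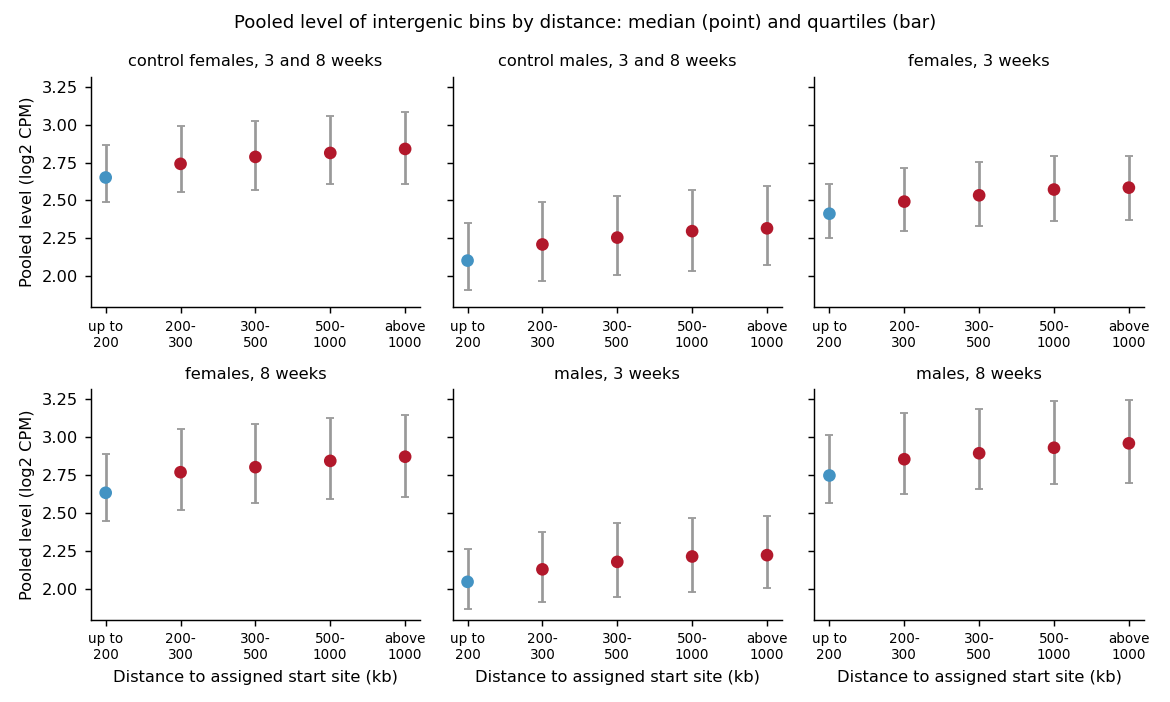
Pooled level (y axis, log2 CPM) of intergenic bins by distance to the assigned start site (x axis, kb) in each of the 6 tables, with points for medians, bars from the lower to the upper quartile, other intergenic bins in blue and gene desert bins in red. The medians of control females go from 2.65 up to 200 kb to 2.84 above 1 Mb, within widely overlapping quartiles.

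Peaks in gene deserts were short. The median peak that held a gene desert bin measured 458 bp in control females and 433 bp in control males, against 684 and 676 bp for other intergenic bins and 1007 and 944 bp at promoters and in genes. Peaks no longer than 1 bin made up 56.8% of gene desert peaks and 33% of all autosomal peaks in control females. Peaks over 2 kb made up 4.73% and 21.7%. The longest gene desert peak measured 14462 bp in control females and 18174 bp in control males.

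The 6 shared stretches were each found in a larger share of gene desert bins than of other bins. Stretch A was held by 5.26% of gene desert bins, 1.63% of other intergenic bins and 0.447% of promoter and gene bins in control females. Since the stretches were picked for their number among gene desert bins of control females, this is a description and not a test. In control males, whose bins were not used for the choice but share the genome and many peaks, the shares for A were 4.61%, 1.33% and 0.369%. Any of the 6 stretches lay in 13.9% of gene desert bins of control females and 12.6% of control males, against 4.89% and 4.22% of other intergenic bins.

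**Figure D3:**
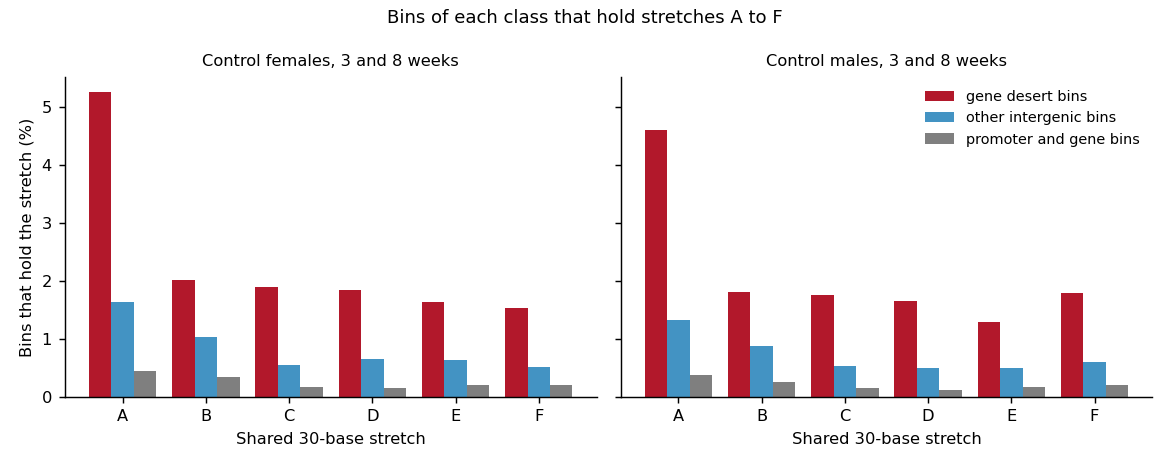
Share of bins (y axis, %) that hold each of the shared 30-base stretches A to F (x axis), for gene desert bins, other intergenic bins and bins at promoters or in genes, in control females (left) and control males (right). Stretch A stands highest, in 5.26% of gene desert bins of females and 4.61% of males.

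Carriers of any of the 6 stretches had similar median levels in the 3 classes of bins in control females. Gene desert bins of control females with any of the 6 stretches had a median level of 3.04, and those without 2.75. Carriers had 3.04 among other intergenic bins and 3.00 among promoter and gene bins. For stretch A alone the medians were 3.09 in gene deserts (quartiles 2.90 and 3.26), 3.06 in other intergenic bins and 3.05 at promoters and in genes. Single stretches differed in this: carriers of D had medians of 2.72, 2.84 and 2.96 in the same order in control males, and carriers of E 3.01, 3.09 and 3.12 in control females. Among the stretches, carriers of D had the highest median in gene deserts of control females, 3.17, and carriers of B the lowest, 2.83. The same ends held in control males, with 2.72 for D and 2.26 for B. The order of levels was not that of GC content, which was highest in carriers of C (60.8%) in control females. Carriers of B, however, were lowest in both level and GC content (51.5%) in control females and in control males.

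Copies of the stretches in the reference differed in how often they lay in a listed peak. Since the stretches were picked from bins, that is from peaks, the choice itself favours copies in peaks, most directly desert copies in control females, and the shares are a description. Stretch A occurs 2858 times on chromosomes 1 to 19, 946 of them in desert sequence. Of the desert copies, 645 (68.2%) lay within a peak of control females and 657 (69.5%) within a peak of control males, and of the copies elsewhere 57.7% and 61.6%. For stretch F, with 1727 desert copies, 12% and 18.1% lay in a peak of control females and males. Stretches B, C, D and E were between these, at 22.9%, 44%, 49.4% and 47% of desert copies in control females. Of their copies elsewhere, 27.3%, 32.4%, 39.6% and 55.8% did, and 11.7% for F, so that the desert share was higher for A, C and D, lower for B and E and nearly the same for F. In control males the order of desert and elsewhere was the same for A to E. Some stretches recurred at a regular spacing: among copies with another within 1 kb, the most frequent spacing was 201 bp for A (245 of 580), 214 bp for C (574 of 644) and 212 bp for F (2688 of 2988). Stretch D had no second copy within 1 kb of another.

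Listed peaks were sparse in gene deserts. Desert sequence as defined above measured 465 Mb, 19.4% of the sequenced autosomes, and held 94.9% of the gene desert bins of control females. It had 23.4 listed bins per Mb of any annotation in control females and 27.2 in control males, against 53.6 and 69.7 elsewhere on the autosomes. Peaks covered 1.76% of desert sequence and 8.88% of the rest in control females. Neighbouring gene desert bins were a median of 28.6 kb apart, and 24.4% of the gaps were at most 10 kb.

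The density of gene desert bins in desert sequence varied less between chromosomes than their share of all bins did. Their share of a chromosome's autosomal bins in control females ran from 3.21% on chromosome 19 to 12.8% on chromosome 3. Per Mb of desert sequence, the count ran from 12.9 on chromosome 19 to 22.2 on chromosome 4. Chromosome 4 was also the densest in control males, at 26, and chromosome 10 the sparsest, at 15.7. The median level per chromosome in control females stayed between 2.70 on chromosome 7 and 2.84 on chromosome 1.

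**Figure D4:**
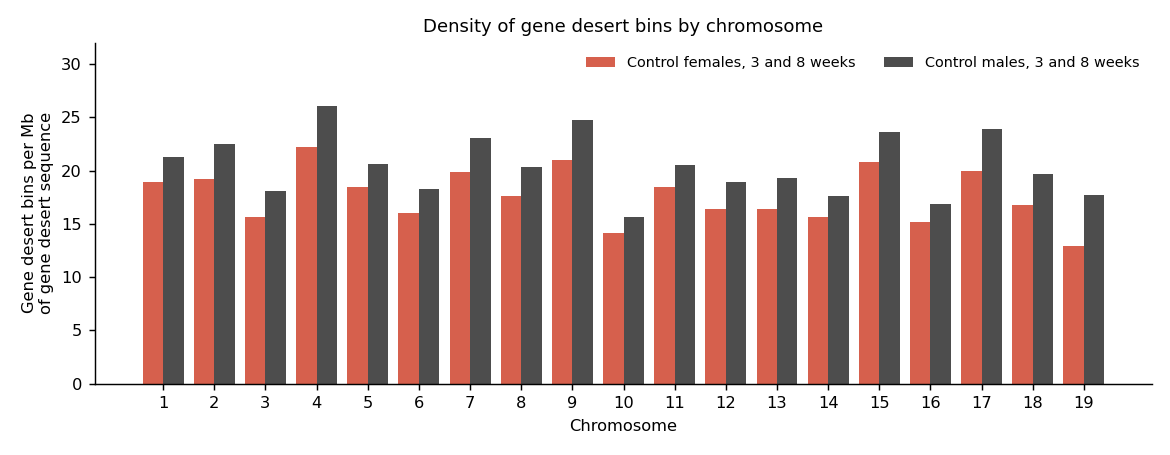
Gene desert bins per Mb of gene desert sequence (y axis) on each autosome (x axis) in control females (red) and control males (grey). Chromosome 4 is the densest in both, at 22.2 and 26 bins per Mb.

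Most of the bins with the highest levels were heavily masked or lay in long peaks. In control females the highest was a bin at chr5:83795456-83795851, assigned to Tecrl, an enoyl-CoA reductase-like gene known from heart muscle, with a level of 4.22 (18.7 CPM) and every base masked. The next were assigned to Gm12887 at chr4:121994881-121995381 (4.07, 98.4% masked), to 1700030C10Rik at chr12:19717484-19717984 (4.07, 6.19% masked) and to Cst3, which encodes the protease inhibitor cystatin C, at chr2:149102177-149102677 (4.00, 62.1% masked). The 1700030C10Rik bin was the least masked of the 4 and lay in a peak of 8634 bp.

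In control males the highest gene desert bin was at chr9:12138345-12138845, assigned to 4930568E12Rik, with a level of 3.94 in a peak of 4801 bp. The second was on the same chromosome at chr9:11812318-11812818, 908 kb upstream of Cntn5, a contactin adhesion gene of neurons, at 3.89. The Gm12887 bin followed at 3.72, with male coordinates chr4:121994906-121995396, and was the only assigned gene among the highest 4 of both sexes. The fourth was assigned to Mms22l, a gene of the repair of stalled replication forks, at chr4:24284154-24284654 with 3.70.

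The farthest bins came from 2 deserts, on chromosomes 2 and 14, in both sexes. On chromosome 2, the bin at chr2:99539462-99539962 of control females lay 2036 kb from the start of Iftap, named for intraflagellar transport, with a level of 3.36. The farthest of control males, at chr2:99513923-99514264, lay 2046 kb from Lrrc4c, the netrin-G ligand gene of synapses, with a level of 2.51. On chromosome 14, bins assigned to Gm32455 and to Olfm4, a secreted glycoprotein gene of intestinal crypts, lay 1979 and 1959 kb away in control females and 2018 and 1954 kb in control males. The Iftap bin of control females was nonetheless 15.3 kb from the nearest annotated gene of any kind.

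The 8694 gene desert bins of control females were assigned to 1114 genes, and a few genes took many bins. A pair of clone-named genes on chromosome 12 shared a region: 5730507C01Rik had 52 bins in control females and 66 in the males, while 1700030C10Rik had 46 and 51. In females their bins spanned chr12:18131179-19661276 and chr12:19666538-20606928. Their peaks were longer than most, with medians of 966 and 878 bp, and their bins were less masked, at 59.9% and 45.8%. Lrrc4c had 54 and 53 bins over 4046 kb of chromosome 2, with a median level of 2.84 in females. Gm20268 had 48 and 52 on chromosome 1, at 2.92. Cntnap5a, a contactin-associated gene of neurons also on chromosome 1, had 47 and 50, at 2.85.

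Cell adhesion genes took a larger share of gene desert bins than of other intergenic bins. Cadherins and protocadherins were the assigned genes of 3.39% of gene desert bins of control females, against 0.403% of other intergenic bins, with Cdh26, Cdh18 and Cdh20 leading at 35, 32 and 32 bins. Synaptic adhesion genes were assigned 3.32% against 0.42%, in a group of symbols that does not hold Lrrc4c, led by Cntnap5a and by Csmd3, a large membrane protein gene of the brain, with 30 bins. Both groups together made up 6.72% of gene desert bins in control females and 6.33% in control males. Counted by gene the share was 3.23% (36 of 1114 genes) in control females, against 0.529% of the genes assigned to other intergenic bins. These groups are defined by gene symbols, and their genes are known to stand in gene-poor regions, so that the distance rule itself bears on the shares.

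Other gene groups varied in direction. Glutamate and GABA receptor genes were assigned 1.3% of gene desert bins against 0.394% in control females, of which Grik2, a kainate receptor gene, had 41 bins. Developmental transcription factors had 2.27% against 2.84% of other intergenic bins and 1.95% of all autosomal bins, so that the direction depended on the reference, led by Tshz3 (35 bins). Ion channels had 0.874% against 1.01% and zinc finger genes 1.07% against 1.88%. Olfactory and vomeronasal receptor genes, whose clusters are dense, were assigned to no gene desert bin in any table, against 1.35% of other intergenic bins in control females. Predicted or clone-named genes took the largest share, 26.9% against 17%, and microRNA genes 3.23% against 2.16%.

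Levels at 3 and 8 weeks were compared between the tables that pool MO and control offspring of 1 sex and age, which share no library. Of the gene desert bins, 7201 had the same coordinates at both ages in females and 6745 in males. In females their median level was 2.61 in the 3-week table and 2.88 in the 8-week table, with a median difference of 0.30 (quartiles 0.11 and 0.49). All autosomal bins differed by 0.22, so that gene desert bins exceeded the shift of the whole table by 0.084. In males the median difference was 0.67 in gene desert bins and 0.63 in all autosomal bins, an excess of 0.042. The excess was small beside the spread between bins, and 62.3% of gene desert bins in females and 55.7% in males lay above the median of all autosomal bins. The shift of a whole table cannot be told apart from the scaling of that table, and without values per library the differences could not be set against the spread between mice.

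The difference between ages was larger in more fully masked bins and in carriers of most, but not all, of the shared stretches. Gene desert bins at least 90% masked differed by 0.43 in females and 0.81 in males. Those under 10% masked differed by 0.21 and 0.57, or -0.01 and -0.062 relative to all autosomal bins. Gene desert carriers of stretch C had the largest median among the 6 stretches, 0.60 in females (149 bins) and 1.00 in males (149 bins). Relative to all autosomal bins these were 0.38 and 0.37. Carriers of A stood at 0.49 and 0.84, of B at 0.33 and 0.75, of D at 0.50 and 0.91, and of F at 0.51 and 0.96. Carriers of E, the lowest of the 6 at 0.29 and 0.59, were 0.072 above the median of all autosomal bins in females and -0.044 relative to it in males. Bins with none of the 6 stretches had medians of 0.27 and 0.64.

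**Figure D5:**
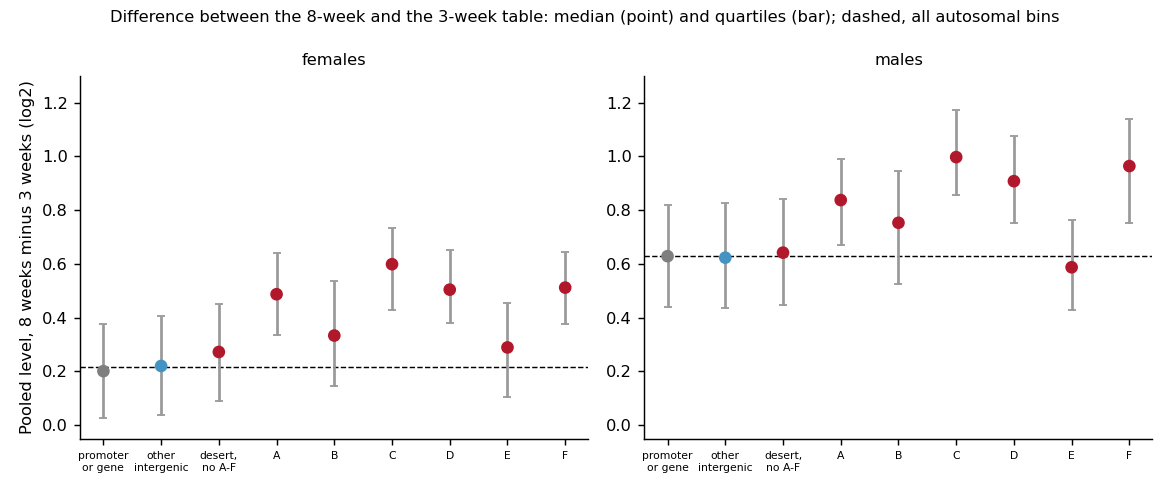
Pooled level in the 8-week table minus that in the 3-week table (y axis, log2) for bins at promoters or in genes (grey), other intergenic bins (blue), gene desert bins without stretches A to F and gene desert carriers of each stretch (red), in females (left) and males (right), with points for medians and bars from the lower to the upper quartile. Carriers of C stand highest in both sexes, and among carriers those of E lie closest to the dashed line, the median of all autosomal bins.

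Gene desert bins listed at both ages were the larger part of each list. In females 76.1% of the gene desert bins of 3 weeks and 80.2% of those of 8 weeks were listed at the other age, and in males 64.1% and 84.2%. Among all autosomal bins, 71972 were listed at both ages in females, of 133697 at 3 weeks and 109596 at 8 weeks. In males 68657 were, of 158810 and 101386. Each is a smaller share than that of gene desert bins. The median masked share of gene desert bins was 65.5% at 3 weeks and 69.7% at 8 weeks in females, and 65% and 73.9% in males. The 8-week tables also listed fewer bins in all, and the part of this in the masked share was not tested.

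Most gene desert bins of one sex were also listed in the other. With sharing defined as an overlap of at least 50% of each bin, 5697 gene desert bins were common to control females and control males, 65.5% of the female and 56.8% of the male list. The same shares were 51.3% and 38.9% for other intergenic bins and 47.4% and 36.8% for all autosomal bins. Shared gene desert bins had a median level of 2.90 in females, against 2.60 for bins without such an overlap, some of which overlap a male bin by less. In males the values were 2.44 and 2.03. Shared bins were also more masked, at 75.6% against 48.6% in females and 76.2% against 51.3% in males. Across the shared bins the levels of the sexes had a Spearman coefficient of 0.70, a description over bins that share sequence and base composition.

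Start sites of 10 hepatocyte genes were searched for listed bins within 3 kb. Apob, the structural apolipoprotein of VLDL, was the only one with such a bin in control females, and Apoa1, Apob and Serpinc1 had one in control males. Albumin (Alb), Ttr, Cps1, Fgb, Ahsg, Tat and Cyp2e1 had none in any of the 6 tables. By the same search, 61.1% of the autosomal protein-coding genes of GENCODE M21 had a bin in control females and 65.4% in control males. These counts are a description of the mark and do not measure expression. Counts of all listed bins ran from 102145 to 159357 per table, and the median level of all bins from 4.1 to 6.68 CPM.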

How the data were processed

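As the study's methods describe, ChIP-seq reads were aligned by the authors to mm10/GRCm38 with the Burrows-Wheeler Aligner. The authors found broad peaks with MACS2, removed blacklisted regions, merged recurrent peaks within each sex, cut peaks over 500 bp into bins, counted reads with featureCounts, ran edgeR and annotated with ChIPseeker. The authors' deposited average level is a log2 value (log2 CPM over the 8 ChIP libraries of a table). The tables also hold the authors' own log2 fold changes, p-values and FDRs, which were not used. No table holds a value per library, so the planned count tests could not be run and the exact depth of each library is not known. How the single listed bin of a peak was chosen is not stated.

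Gene desert bins were selected by chromosome, annotation and distance. GC content, CpG and soft-masked bases were read from the RefSeq GRCm38 sequence, and gene bodies from GENCODE M21. Stretches of 30 bases were matched exactly on both strands. Named regions were, at most 1 per assigned gene, the 4 with the highest level and the 4 farthest from a start site in each table of control mice, the 5 genes with most bins, and the 4 bins of all 6 tables with the highest minimum level. The members, gene groups and rules were chosen with earlier results of these data known, and stretches B to F and the 4 carriers of A after the values were seen. Bins are not replicates, so no test was made, and medians and shares stand beside those of other bins. Selection of bins, bin overlap, base composition, intervals of medians, and the choice and sharing of stretches passed 6 checks on simulated data. The other functions were not tested in this way. Python 3.11.15, pandas 2.3.3, numpy 2.4.6 and scipy 1.17.1 were used.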

Additional observations from a re-analysis of the deposited data

How the results depend on the processing

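No paired analysis was possible because the tables hold no value per library, and for the same reason no library could be left out, and no filter, scaling or test could be changed at the level of counts. The 90 alternatives therefore changed which bins were taken, how they were matched or how levels were centred, and 8 of them stayed within the 95% interval of counting error over bins (binomial, for medians by order statistics), an interval that does not cover the spread between mice. Most of these values cannot fall below 0, so their sign says nothing. Each value is given for females and then males, from the tables of control mice except for the age difference. With bins above 100 kb the values were share of autosomal bins 12.7 and 11.8%, median level 2.75 and 2.21, GC content 54.1 and 53.9%, masked share 57.5 and 54%, peak length 483 and 467 bp, share near adhesion genes 4.87 and 4.54%, age difference 0.29 and 0.67 and share common to the sexes 62.5 and 52%. Above 500 kb they were share of autosomal bins 2.71 and 2.34%, median level 2.82 and 2.30, GC content 54.7 and 54.5%, masked share 77.8 and 77.6%, peak length 432 and 402 bp, share near adhesion genes 11 and 10.8%, age difference 0.32 and 0.68 and share common to the sexes 68.4 and 61.5%. With bins above the median level of their table they were share of autosomal bins 10.1 and 8.93%, GC content 55.2 and 55.1%, masked share 75.9 and 75.2%, peak length 458 and 444 bp, share near adhesion genes 6.91 and 6.84%, age difference 0.33 and 0.72 and share common to the sexes 72 and 63.4%. With single-bin peaks they were share of autosomal bins 13.1 and 11.4%, median level 2.80 and 2.26, GC content 55.1 and 55.1%, masked share 73.5 and 72%, age difference 0.30 and 0.66 and share common to the sexes 57 and 47.9%. With 1 bin per assigned gene, the one with the highest level, which raises the level by construction, they were share of autosomal bins 2.34 and 2.14%, median level 3.17 and 2.72, GC content 56.1 and 56%, masked share 79.8 and 81.8%, peak length 504 and 506 bp, share near adhesion genes 3.23 and 3.11% and age difference 0.41 and 0.79. For the 743 and 862 bins also over 200 kb from any annotated gene they were share of autosomal bins 0.65 and 0.585%, median level 2.81 and 2.29, GC content 54.9 and 54.6%, masked share 76.4 and 76% and peak length 439 and 404 bp. The age difference was 0.084 and 0.042 after centring on all autosomal bins, and an overlap of at least 50% in place of equal coordinates took the same bins. The share common to the sexes was 72.9 and 63.3% with any overlap and 0.0805 and 0.0698% with identical coordinates, which follows from merging peaks within each sex. For the other settings the cause of the movement was not tested.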
